A study of Homo sapiens with 15 samples.

Results

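ACTA2, TAGLN, CNN1, CNN2, MYL9, TPM1, FLNA, FLNC, CALD1 and MYH9 are 10 genes whose proteins build, bind or move actin filaments and which are commonly read as markers of contractile smooth muscle or of activated fibroblasts. They were chosen by name among the 60675 genes of the deposited table, and 9 of them were among the 17780 genes with enough counts to be tested. The level of each was followed in HT1080 cells, an established human fibrosarcoma line, by sequencing total RNA depleted of ribosomal RNA. The groups were wild-type cells kept for 2 days in 1 µM TMP195 (3 libraries), untreated cells whose KDAC7 (gene HDAC7) carried H709A (4 libraries), untreated cells whose KDAC4 (gene HDAC4) carried H803A (3 libraries), and untreated cells whose KDAC4 carried H976Y (4 libraries). The changes are in the cells' own genes, as the title of the series states. It names inactive KDAC4 and KDAC7, and its design text speaks of inactivated or enhanced enzymes without saying which change is which. A tyrosine in place of the histidine changed in H976Y makes class IIa enzymes more active as deacetylases, as is known from work on the purified proteins. Whether the cells of a group were 1 clone or several is not stated in the labels. Untreated wild-type cells were not analysed here, so each comparison is between 2 of these 4 groups. The column of a 4th KDAC4 H803A sample held gene lengths in place of counts and was used only to set levels of different genes on a per-length scale.

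In contractile and migrating cells, non-muscle myosin II pulls on filaments of actin, tropomyosin lies along those filaments, and filamins cross-link them. Calponins, caldesmon and transgelin bind the same filaments and mark differentiated smooth muscle when abundant. Many of these genes are switched on by serum response factor (SRF) and its actin-sensing partners of the myocardin family, which bind DNA motifs called CArG boxes. Class IIa deacetylases such as KDAC4 and KDAC7 bind MEF2 transcription factors and recruit corepressors to chromatin, and TMP195 inhibits that class by filling the catalytic pocket.

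The CArG box was searched on both strands as CC, then 6 positions of A or T, then GG, in RefSeq promoters of GRCh38.p14 that run from 250 bases before to 50 bases after a transcription start. The motif is its own reverse complement, so each match lies on both strands. Of all 35116 promoters of that length, 454 (1.29%) held an exact match and 6624 (18.9%) held a match with up to 1 mismatch. Entries were found for 8 of the 10 genes, with 12 starts among them, and TAGLN and MYL9 had none. An exact match stood in 2 genes, CNN2 and FLNA, and a match with up to 1 mismatch in 4, which adds ACTA2 and CALD1. Counted by start, as the shares of all promoters are, a match with up to 1 mismatch stood in 5 of the 12. The 250 bases before the start are shown for ACTA2, the smooth muscle actin, for CNN2 and FLNA, the 2 with an exact match, and for FLNC, the gene whose level varied most between libraries and whose window held no match. They are written 5′ to 3′ on the strand of the gene, with matches of up to 1 mismatch in capitals. ACTA2 lies on the minus strand at chr10:88952774-88953023, CNN2 on the plus strand at chr19:1026358-1026607, FLNA on the minus strand at chrX:154374635-154374884 and FLNC on the plus strand at chr7:128830156-128830405.
ACTA2: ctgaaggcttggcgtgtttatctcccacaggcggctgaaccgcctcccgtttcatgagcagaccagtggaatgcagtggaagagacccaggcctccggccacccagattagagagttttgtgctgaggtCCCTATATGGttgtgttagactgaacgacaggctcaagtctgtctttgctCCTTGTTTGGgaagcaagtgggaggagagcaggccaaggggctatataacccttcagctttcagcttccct
CNN2: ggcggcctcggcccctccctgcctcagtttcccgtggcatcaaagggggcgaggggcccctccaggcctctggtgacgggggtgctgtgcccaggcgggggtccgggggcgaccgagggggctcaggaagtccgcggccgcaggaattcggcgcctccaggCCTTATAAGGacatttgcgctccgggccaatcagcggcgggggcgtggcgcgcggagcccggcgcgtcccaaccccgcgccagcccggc
FLNA: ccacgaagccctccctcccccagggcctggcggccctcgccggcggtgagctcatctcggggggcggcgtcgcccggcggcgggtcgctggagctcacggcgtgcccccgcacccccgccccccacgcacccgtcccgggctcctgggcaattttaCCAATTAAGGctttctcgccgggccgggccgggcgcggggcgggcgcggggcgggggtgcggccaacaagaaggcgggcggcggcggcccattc
FLNC: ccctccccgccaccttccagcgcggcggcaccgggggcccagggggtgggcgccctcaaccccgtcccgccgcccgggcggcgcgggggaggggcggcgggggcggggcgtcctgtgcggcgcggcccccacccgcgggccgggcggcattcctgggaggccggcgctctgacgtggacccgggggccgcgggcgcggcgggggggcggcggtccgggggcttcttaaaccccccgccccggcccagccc
The matches begin 121 and 71 bases before the start in ACTA2, 89 bases in CNN2 and 94 bases in FLNA. The other ACTA2 start, with upstream bases at chr10:88991338-88991587, held no match. The pair in ACTA2 are its long-known CArG elements. A match describes letters only and is not shown here to be bound.

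The 14 libraries held 6151383 to 24297487 rounded counts, so that 1 CPM (count per 1e+06 of the scaled library size) stands for 4.86 to 23.9 counts. The share of mitochondrial ribosomal RNA was 16.1% to 31.5% of counts in KDAC4 H976Y libraries and 0.345% or less elsewhere, so it cannot be told apart from any difference against KDAC4 H976Y cells. Other measures differed within groups. The median level of GC-rich minus GC-poor genes (log2) was 1.3 and 1.18 for KDAC4 H803A replicates 2 and 3 and -1.04 for replicate 1 of that label. It was 1.09, -0.45, -0.92 and -1.07 for KDAC7 H709A replicates 1 to 4. In TMP195 libraries it was 0.38 to 0.53 and in KDAC4 H976Y libraries -0.5 to -0.26, so these groups also differed in base composition without overlap. Fits with offsets for GC content and gene length are among the alternatives. Set against KDAC7 H709A replicate 4, the library labelled KDAC4 H803A replicate 1 differed by a chi-square of 2.15 per degree of freedom, which is more than counting noise but the lowest of all pairs; the other KDAC4 H803A libraries differed from it by 227 and 264. The library labelled KDAC7 H709A replicate 1 differed from its own group by 167 or more, and from KDAC4 H803A replicate 3 by 35.1. These 3 libraries, KDAC4 H803A replicate 1 and KDAC7 H709A replicates 1 and 4, stand apart and are kept under their labels, and values without all 3 are given with the results. They were picked from these same counts, so leaving them out narrows the spread within groups by choice. It leaves replicates 2 and 3 in each of those groups. Their GC-rich minus GC-poor values were 1.3 and 1.18 in KDAC4 H803A and -0.45 and -0.92 in KDAC7 H709A. In this setting a difference between those groups thus cannot be told apart from base composition. Calls among all genes between KDAC7 H709A and KDAC4 H803A cells then went from 0 to 11044. Adjusted p-values of that edgeR fit, with or without the offsets, are descriptions and add no support. Tallies and ranges over the alternatives given below include both. Of 8 mesenchymal markers, VIM (2690 to 5640 CPM) and FN1 (190 to 2480 CPM) were high. COL1A1 (0.607 to 14.4 CPM) and PDGFRB (2.09 to 10.4 CPM) were low, and COL1A2, THY1, S100A4 and COL3A1 reached at most 3.08, 1.75, 1.13 and 0.0868 CPM. Of 6 smooth muscle markers outside the 10 genes, 5 stayed under 1 CPM in every library, with MYOCD at 0, and MYH11 ranged from 1.49 to 21.0 CPM. In RNA from whole cultures, fewer cells making a transcript and less RNA per cell cannot be told apart.

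Per kilobase of the deposited effective length, the mean level over all 14 libraries was 455 CPM per kb for FLNA, 303 for MYH9 and 208 for TPM1. It was 60.8 for CALD1 and 57.3 for CNN2, then 18.1 for FLNC, 15.2 for MYL9, 14.8 for ACTA2 and 11.2 for TAGLN, and 0.164 for CNN1. The cytoskeletal actins ACTG1 and ACTB stood at 3879 and 2444 CPM per kb on the same scale. The genes most tied to differentiated smooth muscle (ACTA2, TAGLN, CNN1) thus had the lowest levels of the 10 per kilobase, and FLNA, MYH9 and TPM1, used by most cell types, the highest. Between the highest and the lowest library, levels differed 27.5 times for FLNC, 8.98 times for TAGLN, 4.21 times for MYL9 and 1.85 times for TPM1, with the other tested genes between MYL9 and TPM1. The GC content of the longest transcript ran from 41.6% in CALD1 and 45.9% in TPM1 to 62.2% in FLNA and 62.3% in FLNC.

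**Figure D1:**
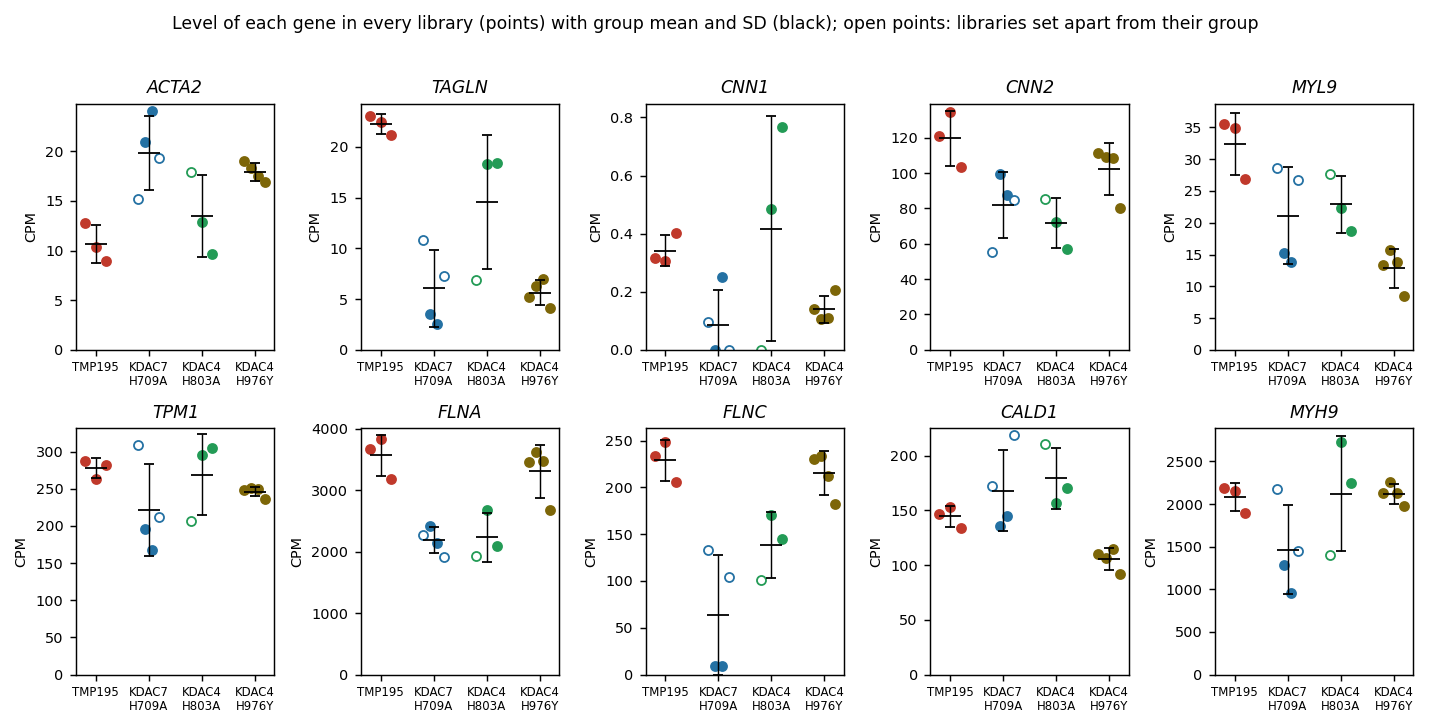
Level of each of the 10 genes in CPM (vertical axes, each starting at 0) in every library, by group, with the group mean and SD in black. Open points are KDAC4 H803A replicate 1 and KDAC7 H709A replicates 1 and 4. TAGLN stands at 21.1 CPM or more in TMP195-treated cells and at 6.93 CPM or less in KDAC4 H976Y cells, and FLNC stands at 9.63 and 9.01 CPM in KDAC7 H709A replicates 2 and 3.

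TMP195-treated cells differed from KDAC4 H976Y cells in 3 of the 9 tested genes: TAGLN and MYL9 were higher and ACTA2 was lower, at an adjusted p under 0.05 (edgeR's quasi-likelihood test, Benjamini-Hochberg over all genes tested). In this comparison 16.5% of all genes were called (7.96% higher and 8.55% lower). They differed from KDAC7 H709A cells in 3 genes as well, with TAGLN and FLNA higher and ACTA2 lower, where 6.29% of all genes were called (1.99% higher and 4.31% lower). Against KDAC4 H803A cells 0 of the 9 were called, where 5.34% of all genes were (1.56% higher and 3.78% lower). An unadjusted p under 0.05 was found for 2 of the 9, beside 3298 of the 17780 genes. DESeq2 called 2 of the 9, CNN2 and FLNA, beside 1936 of all genes.

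KDAC4 H803A cells had higher CALD1 than KDAC4 H976Y cells, the single call among the 9 tested genes, where 15.1% of all genes were called (9.21% higher and 5.85% lower). KDAC7 H709A cells had higher CALD1 and lower FLNA than KDAC4 H976Y cells, 2 calls of 9, where 12.5% of all genes were called (7.28% higher and 5.19% lower). Between KDAC7 H709A and KDAC4 H803A cells 0 of the 9 genes and 0% of all genes were called; 2 of the 9 and 1118 of all genes had an unadjusted p under 0.05, and DESeq2 called 0 of the 9 and 79 of all genes. In all, 9 of 54 values over the 6 comparisons were called, and comparisons that share a group share its libraries. Single libraries moved these counts: without KDAC7 H709A replicate 1 the calls among the 9 numbered 4 in TMP195-treated against KDAC7 H709A cells, 4 in KDAC7 H709A against KDAC4 H976Y cells, 4 in KDAC4 H803A against KDAC4 H976Y cells and 1 in TMP195-treated against KDAC4 H803A cells. In the same fits 2755, 2584, 4667 and 1438 of the 17780 genes were called in these comparisons. Without KDAC4 H803A replicate 1 they numbered 4 in KDAC4 H803A against KDAC4 H976Y cells, 2 in KDAC7 H709A against KDAC4 H803A cells and 1 in TMP195-treated against KDAC4 H803A cells, where 8431, 4788 and 2695 of all genes were called. Without any 1 of the TMP195 libraries, or KDAC7 H709A replicate 2, they numbered 0 in TMP195-treated against KDAC7 H709A cells (422 to 724 of all genes). In KDAC7 H709A against KDAC4 H976Y cells they numbered 0 without KDAC4 H976Y replicate 1, 2 or 3 or KDAC7 H709A replicate 4 (1215 to 1770 of all genes), and in KDAC4 H803A against KDAC4 H976Y cells 0 without KDAC4 H976Y replicate 1 or 2 or KDAC4 H803A replicate 3 (1129 to 1310 of all genes).

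Groups that do not overlap in any library are a wider measure than the calls. In TMP195-treated against KDAC4 H976Y cells 5 of the 9 genes did not overlap, beside 53.8% of all genes. The count was 5 of 9 in TMP195-treated against KDAC7 H709A cells and 5 of 9 against KDAC4 H803A cells, beside 24.3% of all genes in each. It was 3 of 9 in KDAC4 H803A against KDAC4 H976Y cells (23.1% of all genes), 3 of 9 in KDAC7 H709A against KDAC4 H976Y cells (20.1%), and 0 of 9 in KDAC7 H709A against KDAC4 H803A cells (2.01%). The median log2 fold change of the 9 genes was 0.17, 0.55 and 0.50 for TMP195-treated cells against KDAC4 H976Y, KDAC7 H709A and KDAC4 H803A cells, beside medians of 0.03, -0.07 and -0.11 over all genes. For KDAC4 H803A and KDAC7 H709A against KDAC4 H976Y cells the medians of the 9 were 0.00 and -0.15, beside 0.09 and 0.09 over all genes, and for KDAC7 H709A against KDAC4 H803A cells -0.12 beside 0.02.

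**Figure D2:**
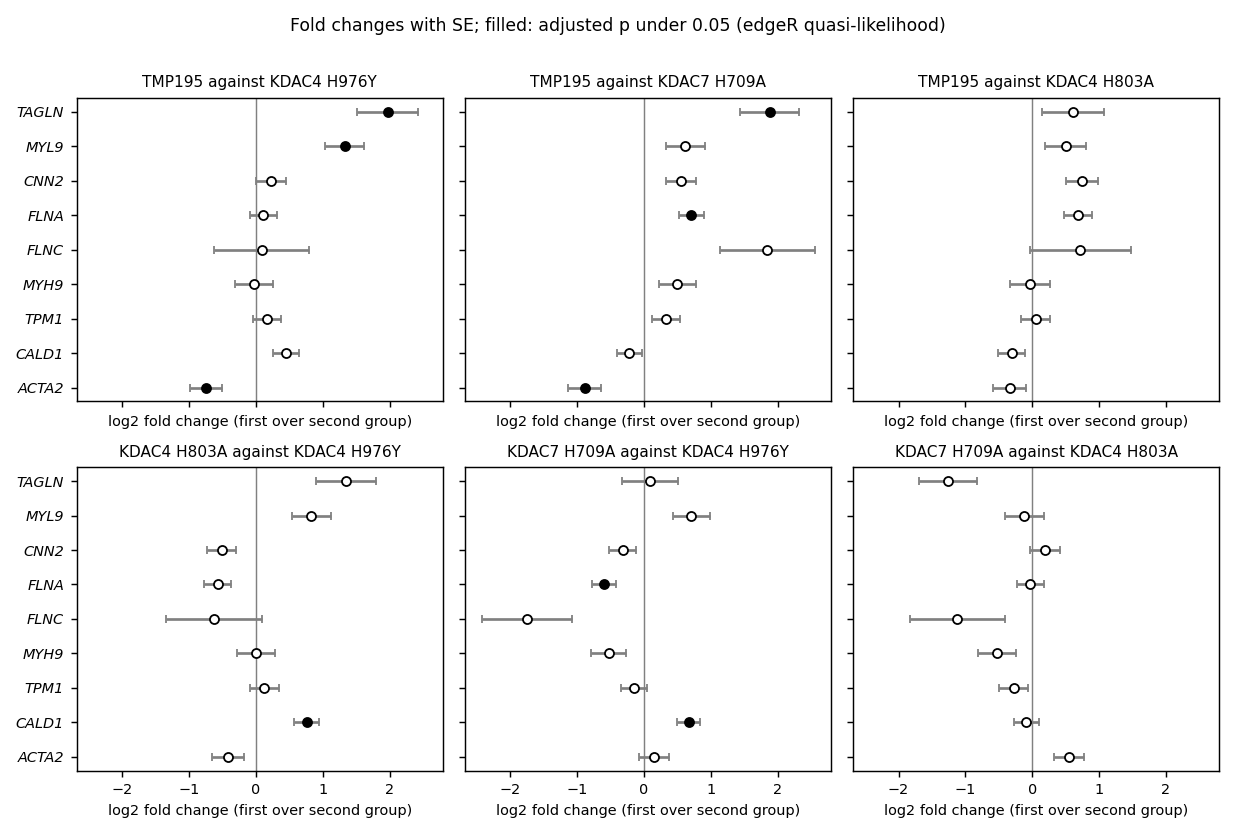
Log2 fold changes (horizontal axes, first-named over second-named group, from edgeR) of the 9 tested genes in the 6 comparisons, with their SE as bars. Filled points are the 9 values with an adjusted p under 0.05; the top left panel has TAGLN at 1.97, MYL9 at 1.33 and ACTA2 at -0.75.

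TAGLN (ENSG00000149591, chromosome 11, 117199321 to 117204782, plus strand, GRCh38) encodes transgelin, or SM22, a small calponin-related protein that bundles actin and is an early marker of smooth muscle. It had 23.05, 22.5 and 21.1 CPM in TMP195-treated cells, 10.8, 3.56, 2.57 and 7.25 CPM in KDAC7 H709A cells, 6.90, 18.3 and 18.4 CPM in KDAC4 H803A cells, and 5.21, 6.28, 6.93 and 4.12 CPM in KDAC4 H976Y cells. All TMP195 libraries stood above every other library, and KDAC4 H803A replicates 2 and 3 came next. The library labelled KDAC4 H803A replicate 1 stood with the KDAC4 H976Y libraries, and KDAC7 H709A spanned a range that held all of KDAC4 H976Y. Group means were 22.2 ± 0.984 CPM in TMP195-treated cells, 6.05 ± 3.76 in KDAC7 H709A, 14.55 ± 6.62 in KDAC4 H803A and 5.63 ± 1.23 in KDAC4 H976Y cells (SD, n = 3, 4, 3 and 4).

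TAGLN was 1.97 ± 0.45 higher (log2, SE) in TMP195-treated than in KDAC4 H976Y cells (edgeR adjusted p = 0.0109), and this call held in all 24 alternative fits (1.21e-06 to 0.0495). Against KDAC7 H709A cells it was 1.88 ± 0.44 higher in TMP195-treated cells (adjusted p = 0.0241), a call held in 18 of 24 fits (9.42e-07 to 0.128). That call ended without KDAC7 H709A replicate 2 (0.0678) or any of TMP195 replicates 1, 2 and 3 (0.0891, 0.0863 and 0.0731), in a fit of only these 2 groups (0.0634), and with a block for replicate number (0.128). Against KDAC4 H803A cells the TMP195 libraries were higher in every pair, by 0.61 ± 0.47 (log2), which did not pass the test (adjusted p = 0.537). KDAC4 H803A cells stood 1.35 ± 0.45 above KDAC4 H976Y cells (adjusted p = 0.0582), which passed without KDAC4 H803A replicate 1 (1.67, 0.00886), without KDAC7 H709A replicate 1 (0.0231) or 3 (0.0387), and by DESeq2 (0.0233), over a range of 6.06e-06 to 0.2. KDAC7 H709A against KDAC4 H803A cells came to -1.26 ± 0.44 (adjusted p = 0.634), which passed without KDAC4 H803A replicate 1 (0.0205; 2e-06 to 1.0 over the alternatives). With all 3 libraries that stand apart left out, KDAC7 H709A against KDAC4 H803A came to -2.58 (2e-06) and KDAC7 H709A against KDAC4 H976Y to -0.93 (0.00685), where all libraries gave 0.09 ± 0.42 (adjusted p = 0.928). In the same fit TMP195-treated cells were 1.94 above KDAC4 H976Y cells (1.21e-06) and 2.87 above KDAC7 H709A cells (9.42e-07), and KDAC4 H803A cells 1.65 above KDAC4 H976Y cells (6.06e-06). With GC and length offsets added to that fit, KDAC7 H709A against KDAC4 H803A came to -1.85 (3.18e-05). The PCSK7 gene overlaps TAGLN on the opposite strand (38.6 to 124 CPM). Whether the counting used strand is not given in the sources used here, and without strand the reads of the pair cannot be told apart.

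ACTA2 (ENSG00000107796, chromosome 10, 88935074 to 88991339, minus strand) encodes smooth muscle alpha-actin, the actin of contractile smooth muscle and of myofibroblasts. It had 12.8, 10.3 and 8.96 CPM in TMP195-treated cells, 15.15, 20.9, 24.04 and 19.3 CPM in KDAC7 H709A cells, 17.9, 12.9 and 9.65 CPM in KDAC4 H803A cells, and 19.0, 18.3, 17.5 and 16.9 CPM in KDAC4 H976Y cells. The TMP195 libraries lay below every library of KDAC7 H709A and KDAC4 H976Y, and KDAC4 H803A overlapped all the other groups. Means were 10.7 ± 1.93 CPM in TMP195-treated cells, 19.9 ± 3.70 in KDAC7 H709A, 13.5 ± 4.17 in KDAC4 H803A and 17.9 ± 0.917 in KDAC4 H976Y cells.

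ACTA2 fell by 0.89 ± 0.24 (log2) in TMP195-treated against KDAC7 H709A cells (adjusted p = 0.0411; called in 10 of 24 alternatives, 4.31e-05 to 0.193). It fell by 0.75 ± 0.24 in TMP195-treated against KDAC4 H976Y cells (adjusted p = 0.0471; called in 11 of 24, 0.00072 to 0.193). Both were close to the threshold of 0.05. Against KDAC7 H709A cells the call was lost in 11 of 14 fits that each left out 1 library (0.0507 to 0.193) and held without KDAC4 H803A replicate 1 or 3 or KDAC7 H709A replicate 1. Against KDAC4 H976Y cells it was lost in 10 of 14 (0.0571 to 0.193) and held without KDAC4 H803A replicate 1 or 3 or KDAC7 H709A replicate 1 or 3. With the 3 libraries that stand apart left out, the values were -1.08 (0.000302) and -0.75 (0.00117). The remaining comparisons of ACTA2 were not called, but without KDAC4 H803A replicate 1 the gene was higher in KDAC7 H709A than in KDAC4 H803A cells (0.84, adjusted p = 0.0264; 0.000291 to 1.0 over the alternatives) and lower in KDAC4 H803A than in KDAC4 H976Y cells (-0.69, 0.0323; 0.00481 to 0.664). ACTA2 had fractional counts in every library, so part of its reads were shared out with similar transcripts, and FAS, STAMBPL1 and ACTA2-AS1 overlap it on the opposite strand.

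ACTA2 and TAGLN, both textbook smooth muscle genes, were set in opposite order. The 6 libraries with at least 10 CPM of TAGLN had 8.96 to 15.15 CPM of ACTA2, and the 8 libraries with less TAGLN had 16.9 to 24.04 CPM of ACTA2. Those with more TAGLN were all TMP195 libraries, KDAC4 H803A replicates 2 and 3 and KDAC7 H709A replicate 1. This split was chosen after the values were seen and carries no test. The same 6 libraries had a positive GC-rich minus GC-poor value (0.38 to 1.3, log2), and the other 8 a negative one (-1.07 to -0.26). The split by TAGLN thus cannot be told apart from one by base composition. Within the TMP195 group both genes fell from replicate 1 to replicate 3. Within KDAC7 H709A and within KDAC4 H803A their orders were opposite, and within KDAC4 H976Y they were mixed.

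**Figure D3:**
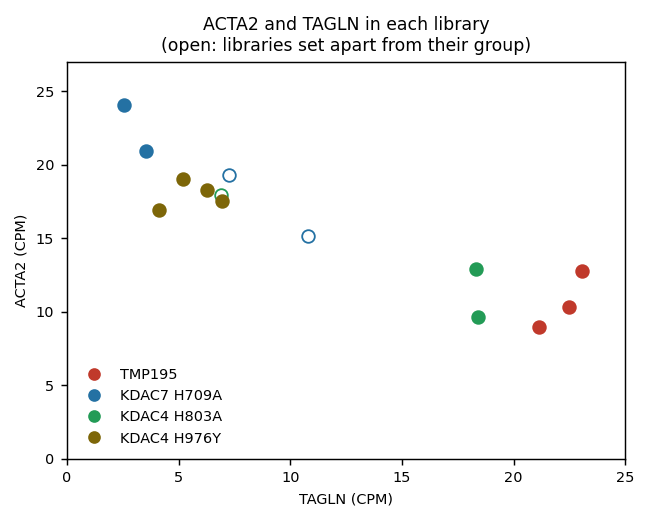
ACTA2 (vertical axis, CPM) against TAGLN (horizontal axis, CPM) in each of the 14 libraries, coloured by group, with open points for the 3 libraries that stand apart. The TMP195 libraries lie at the lower right, with TAGLN of 21.1 to 23.05 CPM and ACTA2 of 8.96 to 12.8 CPM, and KDAC7 H709A replicates 2 and 3 at the upper left.

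Calponins stabilise actin filaments and restrain myosin. CNN1 (ENSG00000130176, chromosome 19, 11538717 to 11550323, plus strand), the form restricted to smooth muscle, was close to undetected and did not pass the filter on low counts. It had 16 counts in all in TMP195-treated cells (5 to 6 per library), 5 in KDAC7 H709A, 12 in KDAC4 H803A and 4 in KDAC4 H976Y cells. It was at 0 in KDAC7 H709A replicates 2 and 4 and in KDAC4 H803A replicate 1. Without the filter its adjusted p ran from 0.43 to 1.0 over the 6 comparisons, so no difference was detectable at this depth.

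CNN2 (ENSG00000064666, chromosome 19, 1026581 to 1039068, plus strand), a calponin found in many cell types, had 120.8, 134.8 and 103.5 CPM in TMP195-treated cells, 55.4, 99.6, 87.5 and 84.8 CPM in KDAC7 H709A cells, 85.4, 72.5 and 57.0 CPM in KDAC4 H803A cells, and 111.5, 109.0, 108.4 and 80.1 CPM in KDAC4 H976Y cells. All TMP195 libraries lay above all KDAC7 H709A and KDAC4 H803A libraries and overlapped KDAC4 H976Y. The fold change of TMP195-treated over KDAC4 H803A cells was 0.74 ± 0.24 (log2, adjusted p = 0.0958), which passed without KDAC4 H803A replicate 1 (0.0348), without KDAC7 H709A replicate 1 (0.0334) and by DESeq2 (0.019), over a range of 9.64e-05 to 0.374. Over KDAC7 H709A cells it was 0.55 ± 0.22 (adjusted p = 0.155), which passed in none of the 24 alternatives (0.0574 to 0.962). KDAC4 H803A against KDAC4 H976Y cells came to -0.51 ± 0.22 (adjusted p = 0.126; 5.72e-05 to 0.426), and passed without KDAC4 H803A replicate 1 (-0.68, 0.0385). With the 3 libraries that stand apart left out, TMP195-treated over KDAC4 H803A cells came to 0.89 (0.00107), KDAC4 H803A over KDAC4 H976Y cells to -0.68 (0.00293), and KDAC7 H709A over KDAC4 H803A cells to 0.55 (0.0225), where all libraries gave 0.19 ± 0.22 (0.674; 0.000159 to 1.0). With GC and length offsets added to that fit, KDAC7 H709A over KDAC4 H803A cells came to 1.06 (0.000159).

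MYL9 (ENSG00000101335, chromosome 20, 36541484 to 36551447, plus strand) encodes a regulatory light chain of myosin II whose phosphorylation starts contraction. It had 35.6, 34.9 and 26.8 CPM in TMP195-treated cells, 28.6, 15.2, 13.9 and 26.7 CPM in KDAC7 H709A cells, 27.7, 22.4 and 18.75 CPM in KDAC4 H803A cells, and 13.4, 15.6, 13.9 and 8.445 CPM in KDAC4 H976Y cells. KDAC4 H976Y lay below all TMP195 and KDAC4 H803A libraries, and within KDAC7 H709A replicates 2 and 3 were at the level of KDAC4 H976Y while replicates 1 and 4 were near that of TMP195. In TMP195-treated against KDAC4 H976Y cells MYL9 was 1.33 ± 0.29 higher (log2, adjusted p = 0.00833), with means of 32.4 ± 4.88 CPM in TMP195-treated and 12.8 ± 3.08 CPM in KDAC4 H976Y cells. This call held in 22 of 24 alternatives, among them every fit that left out 1 library, and was lost with offsets for GC content and gene length (1.03, adjusted p = 0.083; 4.1e-05 to 0.113 over all). KDAC4 H803A against KDAC4 H976Y cells came to 0.83 ± 0.29 (adjusted p = 0.0686; 0.0128 to 0.47), which passed without KDAC7 H709A replicate 1 (0.0366) and turned to -0.18 with both the offsets and the 3 libraries left out. TMP195-treated cells were 0.62 ± 0.29 above KDAC7 H709A cells (adjusted p = 0.218), and 1.15 above them with the 3 libraries left out (0.000711; 0.000711 to 0.69). With those libraries out, TMP195-treated and KDAC4 H803A cells were 1.3 (4.1e-05) and 0.64 (0.0128) above KDAC4 H976Y cells, and TMP195-treated cells 0.66 above KDAC4 H803A cells (0.0174), where all libraries gave 0.50 ± 0.31 (0.435; 0.000455 to 0.722).

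MYH9 (ENSG00000100345, chromosome 22, 36281277 to 36388067, minus strand), the heavy chain of non-muscle myosin IIA that pulls on actin, had 2189, 2158 and 1890 CPM in TMP195-treated cells, 2179, 1282, 954 and 1449 CPM in KDAC7 H709A cells, 1397, 2724 and 2247 CPM in KDAC4 H803A cells, and 2126, 2259, 2125 and 1974 CPM in KDAC4 H976Y cells. Means were 2079 ± 165 CPM in TMP195-treated, 1466 ± 518 in KDAC7 H709A, 2123 ± 672.5 in KDAC4 H803A and 2121 ± 116 CPM in KDAC4 H976Y cells, of which all but KDAC7 H709A differed by less than their spread. KDAC7 H709A replicates 2, 3 and 4 were low, and replicate 1 was not. With all libraries, edgeR without offsets called no comparison. KDAC7 H709A against KDAC4 H976Y cells came to -0.53 ± 0.26 (log2, adjusted p = 0.203; 0.00039 to 0.417), which passed without KDAC7 H709A replicate 1 (-0.80, 0.0384) and with GC and length offsets (-0.79, 0.0113). It came to -0.92 with the 3 libraries left out (0.00118). In the same fit KDAC7 H709A against KDAC4 H803A cells came to -1.14 (0.000211), where all libraries gave -0.53 ± 0.28 (0.634; 0.000211 to 1.0), and TMP195-treated against KDAC7 H709A cells to 0.89 (0.00147), where all libraries gave 0.50 ± 0.28 (0.299; 0.00147 to 0.544). With the offsets added to that fit these 3 comparisons came to -0.97 (0.00039), -0.29 (0.187) and 0.49 (0.0325). With offsets and all libraries, KDAC7 H709A against KDAC4 H803A cells came to -0.19 (0.709).

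Tropomyosin 1 and caldesmon both lie along the filament and set when myosin can reach it. TPM1 (ENSG00000140416, chromosome 15, 63042632 to 63071915, plus strand) had the lowest ratio of its highest to its lowest library among the tested genes, with 287.8, 263.5 and 282.7 CPM in TMP195-treated cells, 309.4, 196.4, 167.6 and 211.4 CPM in KDAC7 H709A cells, 206.5, 294.9 and 305.3 CPM in KDAC4 H803A cells, and 247.9, 251.2, 249.2 and 236.7 CPM in KDAC4 H976Y cells. TMP195 lay just above KDAC4 H976Y without overlap, by 0.17 ± 0.21 (log2, adjusted p = 0.581). No comparison was called with all libraries, but 3 were with the 3 libraries that stand apart left out. In that fit 11044, 8392 and 5829 of the 17780 genes were called in these comparisons, in the order given next. KDAC7 H709A against KDAC4 H803A cells then came to -0.71 (0.000585), and to -0.98 (7.34e-05) with GC and length offsets added, where all libraries gave -0.28 ± 0.21 (0.634; 7.34e-05 to 1.0). TMP195-treated against KDAC7 H709A cells came to 0.60 (0.00186), where all gave 0.33 ± 0.21 (0.371; 0.00073 to 0.635). KDAC7 H709A against KDAC4 H976Y cells came to -0.43 (0.014), where all gave -0.15 ± 0.19 (0.666; 0.00399 to 0.921). Its reads are spread over 34 annotated transcripts, its counts were fractional in every library, and the antisense gene RP11-244F12.3 overlaps it (10.7 to 77.2 CPM).

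CALD1 (ENSG00000122786, chromosome 7, 134744252 to 134970728, plus strand), which encodes caldesmon, had 146.3, 153.3 and 134.1 CPM in TMP195-treated cells, 172.5, 136.0, 145.0 and 218.6 CPM in KDAC7 H709A cells, 210.3, 157.2 and 170.3 CPM in KDAC4 H803A cells, and 110.5, 106.4, 114.7 and 91.7 CPM in KDAC4 H976Y cells. Every library of the other 3 groups stood above every KDAC4 H976Y library. CALD1 was 0.76 ± 0.19 higher (log2) in KDAC4 H803A than in KDAC4 H976Y cells (adjusted p = 0.0176; called in 20 of 24 alternatives, 4.12e-07 to 0.0804), a call lost without KDAC4 H803A replicate 3 (0.0522), without KDAC4 H976Y replicate 1 or 2 (0.0527 and 0.0595) and without the filter on low counts (0.0804). KDAC7 H709A cells exceeded KDAC4 H976Y cells by 0.67 ± 0.17 (adjusted p = 0.0247; 16 of 24, 0.0011 to 0.0893). That call was lost without any of KDAC4 H976Y replicates 1 to 4 (0.0679, 0.0757, 0.0586 and 0.0584), without KDAC7 H709A replicate 4 (0.0697) and without the filter (0.0893). It was also lost with a block for replicate number (0.0711), and with that block and GC and length offsets (0.0648). Without the 3 libraries that stand apart the values were 0.61 (0.000611) and 0.41 (0.0215). In TMP195-treated against KDAC4 H976Y cells the difference was 0.45 ± 0.19 (adjusted p = 0.113; 7.3e-06 to 0.293), and 0.44 without those libraries (0.00404).

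Filamins cross-link actin filaments into networks and tie them to the membrane. FLNA (ENSG00000196924, chromosome X, 154348524 to 154374638, minus strand), the filamin of most cell types, had 3670, 3840 and 3191 CPM in TMP195-treated cells, 2269, 2411, 2149 and 1910 CPM in KDAC7 H709A cells, 1922, 2685 and 2092 CPM in KDAC4 H803A cells, and 3464, 3619, 3475 and 2673 CPM in KDAC4 H976Y cells. TMP195 and KDAC4 H976Y were the high groups and KDAC7 H709A and KDAC4 H803A the low ones, with an overlap between KDAC4 H803A replicate 2 and KDAC4 H976Y replicate 4. FLNA was 0.71 ± 0.19 higher (log2) in TMP195-treated than in KDAC7 H709A cells (adjusted p = 0.0475; called in 7 of 24 alternatives, 0.000372 to 0.764), and fell by 0.60 ± 0.18 in KDAC7 H709A against KDAC4 H976Y cells (adjusted p = 0.0471; 8 of 24, 0.000831 to 0.282). Both calls sat at the threshold: each was lost in 11 of 14 fits without 1 library (0.0513 to 0.203 and 0.0508 to 0.129) and held only without KDAC4 H803A replicate 1, KDAC4 H976Y replicate 4 or KDAC7 H709A replicate 1. With GC and length offsets the values were 0.40 (0.581) and -0.81 (0.12), and with the 3 libraries that stand apart left out 0.64 (0.0165) and -0.54 (0.04). TMP195-treated cells were 0.68 ± 0.21 above KDAC4 H803A cells (adjusted p = 0.0869; 0.000325 to 0.37), without overlap, and DESeq2 called this difference (0.00363). KDAC4 H803A against KDAC4 H976Y cells came to -0.57 ± 0.20 (adjusted p = 0.069; 2.08e-05 to 0.258), which passed without KDAC4 H976Y replicate 4 (0.031) or KDAC7 H709A replicate 1 (0.0499). Leaving out the 3 libraries gave 0.59 (0.0231) and -0.48 (0.0329) for these comparisons.

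FLNC (ENSG00000128591, chromosome 7, 128830377 to 128859274, plus strand), the filamin of striated muscle, had 233.2, 248.0 and 205.5 CPM in TMP195-treated cells, 132.7, 9.63, 9.01 and 104.4 CPM in KDAC7 H709A cells, 101.2, 170.9 and 144.4 CPM in KDAC4 H803A cells, and 230.7, 233.9, 212.5 and 182.7 CPM in KDAC4 H976Y cells. The TMP195 and KDAC4 H976Y libraries overlapped each other and lay above every library of the other groups. Within KDAC7 H709A the highest and lowest libraries differed 14.7 times, with replicates 2 and 3 low and replicates 1 and 4 near the level of KDAC4 H803A. Means were 229 ± 21.6 CPM in TMP195-treated cells, 63.9 ± 64.1 in KDAC7 H709A, 139 ± 35.2 in KDAC4 H803A and 215 ± 23.5 CPM in KDAC4 H976Y cells.

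FLNC was not called in any comparison by edgeR with all libraries and no offsets. The fold change of TMP195-treated over KDAC7 H709A cells was 1.84 ± 0.71 (log2, adjusted p = 0.146; 7.37e-09 to 0.314) and that of KDAC7 H709A over KDAC4 H976Y cells -1.75 ± 0.68 (adjusted p = 0.113; 1.36e-09 to 0.201), neither with overlap between the groups. With all libraries the second passed under GC and length offsets (-2.14, 0.0386) and by DESeq2 (-1.73, 0.0456). Both passed without KDAC7 H709A replicate 1 (2.48, 0.0376, and -2.39, 0.0373), and with the 3 libraries left out they came to 4.61 (7.37e-09) and -4.53 (1.36e-09). Those last values rest on KDAC7 H709A replicates 2 and 3 alone. With the same libraries left out, KDAC7 H709A against KDAC4 H803A cells gave -4.06 (1.3e-08), where all libraries gave -1.12 ± 0.71 (adjusted p = 0.634; 1.3e-08 to 1.0). With the offsets added to that fit the value was -2.84 (1.09e-06). KDAC4 H803A against KDAC4 H976Y cells, also without overlap, came to -0.63 ± 0.72 (adjusted p = 0.547), and to -0.46 with the libraries left out (0.011; 3.35e-06 to 0.725). TMP195-treated cells lay above KDAC4 H803A cells in every pair of libraries, by 0.72 ± 0.76 (adjusted p = 0.67) with all libraries and by 0.55 with the same libraries left out (0.00837; 6.56e-05 to 0.821).

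The nearest genes on either side of FLNC with a mean of at least 10 CPM were read in the same libraries, a choice made after its values were seen. In KDAC7 H709A replicates 2 and 3, ATP6V1F, a subunit of the vacuolar proton pump and the next gene downstream, had 42.9 and 45.9 CPM, against 30.1 to 48.5 CPM in KDAC4 H976Y cells. TNPO3, a nuclear import receptor, had 94.9 and 110.5 CPM in the same libraries, against 71.9 to 102.4 CPM in KDAC4 H976Y cells. CALU, a calcium-binding protein of the secretory pathway, had 288 and 336 CPM, against 305 to 474 CPM in KDAC4 H976Y cells. CCDC136 had 14.5 and 8.20 CPM, against 10.5 to 21.4 CPM in KDAC4 H976Y cells. CALU in replicate 2 and CCDC136 in replicate 3 lay below the range of KDAC4 H976Y, and the other values within or above it.

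**Figure D4:**
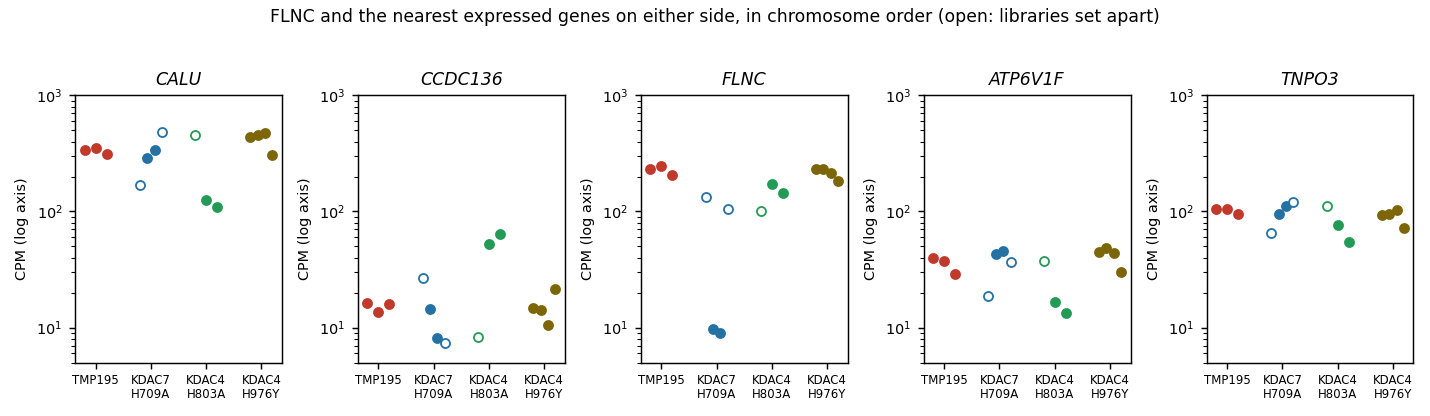
Level of FLNC and of the nearest genes on either side, in chromosome order, in every library (vertical axes, CPM on a log scale), by group, with open points for the 3 libraries that stand apart. FLNC is at 9.63 and 9.01 CPM in KDAC7 H709A replicates 2 and 3, where ATP6V1F is at 42.9 and 45.9 CPM and TNPO3 at 94.9 and 110.5 CPM.

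**Figure D5:**
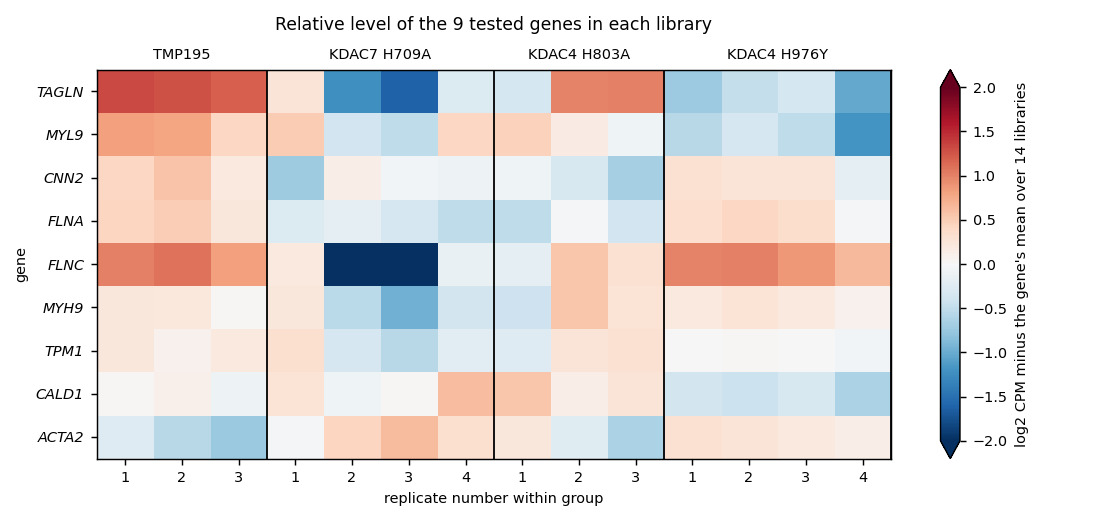
Each tested gene's log2 CPM in a library minus its mean over the 14 libraries (colour, cut at -2 and 2), with genes down the page and libraries by group and replicate number across. The 3 TMP195 columns are high for TAGLN, FLNC and MYL9 and low for ACTA2, and KDAC7 H709A replicates 2 and 3 are low for FLNC and TAGLN while ACTA2 is high.

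The wider actomyosin pathway was read from a list of 52 paralogs, regulators, contraction controls and actin partners, of which 44 were tested. In TMP195-treated against KDAC4 H976Y cells 4 rose and 1 fell, beside 16.5% of all genes called. Against KDAC7 H709A cells 2 rose and 1 fell, beside 6.29%, and against KDAC4 H803A cells 4 rose, beside 5.34%. In KDAC4 H803A against KDAC4 H976Y cells 2 rose and 3 fell, beside 15.1%, and in KDAC7 H709A against KDAC4 H976Y cells 1 rose and 3 fell, beside 12.5%. Between KDAC7 H709A and KDAC4 H803A cells 0 were called, beside 0%, with 3 at an unadjusted p under 0.05, beside 1118 of the 17780 genes. The medians of the 44 lay between -0.10 and 0.15 (log2) in the 6 comparisons.

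Among the regulators, SRF, the factor that binds CArG boxes, was higher in every other group than in KDAC4 H976Y cells. It averaged 74.9 ± 6.14 CPM in TMP195-treated cells, 72.7 ± 7.52 in KDAC7 H709A, 75.4 ± 13.0 in KDAC4 H803A and 40.55 ± 6.82 CPM in KDAC4 H976Y cells, without overlap. The differences from KDAC4 H976Y cells were 0.88 ± 0.18 (log2, adjusted p = 0.00556) for TMP195, 0.84 ± 0.17 (0.0059) for KDAC7 H709A and 0.89 ± 0.18 (0.00647) for KDAC4 H803A. All 3 held in every fit without 1 library and were lost with GC and length offsets, at 0.47 (adjusted p = 0.306), 0.78 (0.0859) and 0.43 (0.337), over ranges of 6.76e-06 to 0.416, 3.94e-06 to 0.169 and 3e-06 to 0.743. With the 3 libraries that stand apart left out they were 0.87 (0.000324), 0.86 (0.00161) and 0.94 (0.000252). With the offsets added to that fit they were 0.46 (0.0164), 0.92 (0.000644) and -0.07 (0.743), so the difference in KDAC4 H803A changed sign. Its coactivators MKL1 and MKL2, also named MRTFA and MRTFB, were not called in any comparison, with group means of 38.15 to 44.9 CPM and 33.4 to 39.8 CPM. MYOCD, the myocardin of muscle, had 0 counts in every library, and a count of 0 allows a level of up to 0.126 to 0.617 CPM (3 counts, for counting error only).

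Of the paralogs, MYL6, the essential light chain that sits beside MYL9 on myosin, averaged 229 ± 6.66 CPM in TMP195-treated, 153 ± 26.6 in KDAC7 H709A, 165 ± 14.9 in KDAC4 H803A and 380 ± 73.5 CPM in KDAC4 H976Y cells. It fell by 1.31 ± 0.18 (log2, adjusted p = 0.000611) and 1.20 ± 0.20 (0.00212) in KDAC7 H709A and KDAC4 H803A against KDAC4 H976Y cells, in all 24 alternatives of each (at most 0.00605 and 0.0138). In TMP195-treated cells it fell by 0.73 ± 0.20 (0.0221; 0.000199 to 0.105), a call lost without KDAC4 H976Y replicate 2 or 3 or any TMP195 library (0.0558 to 0.0953). Without the 3 libraries the values were -1.54 (3.12e-05) in KDAC7 H709A, -1.20 (5.36e-05) in KDAC4 H803A and -0.74 (0.00104) in TMP195-treated cells.

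TAGLN2, the transgelin of non-muscle cells, averaged 395 ± 49.6 CPM in TMP195-treated, 218 ± 33.8 in KDAC7 H709A, 196 ± 50.7 in KDAC4 H803A and 378 ± 60.65 CPM in KDAC4 H976Y cells. It fell by 0.94 ± 0.22 (log2, adjusted p = 0.0152; 2.96e-05 to 0.0952) in KDAC4 H803A and by 0.79 ± 0.20 (0.022; 0.000364 to 0.271) in KDAC7 H709A against KDAC4 H976Y cells, and was 1.01 ± 0.24 (0.0238; 9.61e-05 to 0.206) and 0.86 ± 0.22 (0.0335; 0.000617 to 0.535) higher in TMP195-treated than in KDAC4 H803A and KDAC7 H709A cells. The call in KDAC4 H803A was lost without KDAC4 H803A replicate 3 (0.0848) or KDAC4 H976Y replicate 2 (0.0525), and that in KDAC7 H709A without KDAC4 H976Y replicate 1, 2 or 3 (0.0728 to 0.0841). Both TMP195 calls were lost without any TMP195 library, and in all in 6 and 9 of 14 such fits (0.0503 to 0.123 and 0.0597 to 0.17). They were also lost with GC and length offsets, at 0.88 (adjusted p = 0.111) and 0.52 (0.326). With these offsets the call in KDAC7 H709A against KDAC4 H976Y cells was lost (-0.57, 0.161), and that in KDAC4 H803A held (-0.94, 0.0409). With the 3 libraries left out, the values were -1.10 (0.000346) and -0.68 (0.0183) against KDAC4 H976Y cells. For TMP195-treated cells they were 1.15 (0.000682) and 0.74 (0.011). MYH10, the heavy chain of myosin IIB, averaged 47.9 ± 2.44 CPM in TMP195-treated, 18.2 ± 15.3 in KDAC7 H709A, 89.5 ± 76.7 in KDAC4 H803A and 3.82 ± 0.947 CPM in KDAC4 H976Y cells, with 1.58 CPM in KDAC4 H803A replicate 1. It was 4.57 ± 1.08 (adjusted p = 0.0147; 5.62e-11 to 0.113) and 3.66 ± 1.04 (0.0303; 1.21e-09 to 0.108) above KDAC4 H976Y in KDAC4 H803A and TMP195-treated cells. The first was lost without KDAC4 H976Y replicate 2 (0.0525) or 3 (0.0516), and the second without any one KDAC4 H976Y or TMP195 library (0.0544 to 0.0858). They came to 5.16 (7.16e-11) and 3.69 (1.21e-09) with the 3 libraries left out.

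Among the actin partners, TES, a LIM protein of focal adhesions, averaged 36.0 ± 4.79 CPM in TMP195-treated, 18.3 ± 8.20 in KDAC7 H709A, 9.75 ± 6.75 in KDAC4 H803A and 69.8 ± 13.3 CPM in KDAC4 H976Y cells. It fell by 2.83 ± 0.48 (log2, adjusted p = 0.00258) in KDAC4 H803A and by 1.93 ± 0.41 (0.0086) in KDAC7 H709A against KDAC4 H976Y cells, in all 24 alternatives of each (at most 0.0181 and 0.0426). Its rise in TMP195-treated over KDAC4 H803A cells (1.87 ± 0.48, 0.0389; 5.14e-07 to 0.172) held in 3 of 14 fits without 1 library, those without KDAC4 H803A replicate 1 or KDAC7 H709A replicate 1 or 3. Without the 3 libraries these values came to -3.59 (4.36e-08), -1.56 (3.17e-05) and 2.62 (1.3e-06). TLN1, the talin that links integrins to actin, was 0.91 ± 0.18 higher in TMP195-treated than in KDAC4 H976Y cells (0.00532; 1.32e-07 to 0.503), a call held in every fit without 1 library and lost with GC and length offsets (0.371). Its rise over KDAC4 H803A cells (0.81 ± 0.20, 0.0297; 5.05e-05 to 0.332) was lost in 8 of 14 such fits, those without KDAC4 H803A replicate 2 or 3, KDAC4 H976Y replicate 1, 2 or 3 or any TMP195 library (0.0565 to 0.158). Of the 10 contraction controls 1 was called, ROCK1, a kinase that promotes myosin phosphorylation, which fell by 0.69 ± 0.17 in TMP195-treated against KDAC7 H709A cells (0.0335; 0.000246 to 0.935) and was lost in 9 of 14 such fits (0.055 to 0.147) and with GC and length offsets (0.447). With the 3 libraries left out, TLN1 came to 0.90 (0.000237) over KDAC4 H976Y and 0.94 (0.00114) over KDAC4 H803A cells, and ROCK1 to -0.64 (0.000535). With the offsets added to that fit these were 0.44 (0.0273), 1.37 (0.000103) and -0.01 (0.935).

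Over the 14 libraries the genes outside the actomyosin lists whose log2 CPM was most like that of a member were named, at most 2 for each, as a description without a test, since the points share depth, groups and base composition. They were PNRC1 (Pearson r = 0.943) and STARD4 (0.941) for ACTA2, CDCA3 (0.953) for TAGLN, and SLC44A2 (0.971) and SMC1A (0.948) for MYL9. For CNN2 they were GANAB (0.97) and ALDOA (0.965), for FLNA FAH (0.963) and SUMF2 (0.956), and for FLNC ARMCX4 (0.967) and SERPINB6 (0.945). For TPM1 they were RP4-758J18.2 (0.976) and DUSP28 (0.968), for CALD1 ZIC5 (0.968) and IGF2BP2 (0.963), and for MYH9 LONP1 (0.96) and TCOF1 (0.959). ARMCX4 ranged from 0.521 to 28.6 CPM over the 14 libraries.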

How the data were processed

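Expected counts of 60675 genes, unscaled between libraries, were deposited as 1 table with a column for each of 15 samples. Per the submitters' processing notes, the tools were DESeq2 1.38.2, RSEM 1.3.3, Bowtie2 2.4.5 and Trimmomatic 0.39, in roles left unsaid, and the build was GRCh38. RSEM shares reads among the transcripts they match. Strand setting and annotation release: not given in the sources used here. The deposited column of KDAC4 H803A replicate 4 holds other values: in 96.8% of 7608 genes with 1 long transcript the value was 248.86 bases short of the transcript, to within 0.02 bases. It was left out of all fits and served as the effective length, a change from the plan of 15 count columns. No column was left unmapped (0), and no row lacked a gene name (0).

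Expected counts were rounded, filtered with filterByExpr (minimum count 10, minimum total 15) and scaled by TMM. The 4 groups were fitted in 1 model without covariates and tested with edgeR 4.0.16's quasi-likelihood F test (limma 3.58.1, R 4.3.3) in 6 comparisons, with Benjamini-Hochberg adjustment over 17780 genes and a threshold of 0.05. The SE is the log2 fold change over the square root of F. The fit was first run on simulated counts. Their dispersions were capped and no library stood apart, so that run does not show how the test behaves on these data. Coordinates are those of GENCODE 29. Same-numbered libraries did not deviate together, so no block was used. The alternatives were 24 in all, of which 23 were planned. They were scaling by DESeq2 size factors, scaling without mitochondrial and small RNA genes, no filter, and only the 2 groups compared. Others were a replicate block, GC and length offsets, the block with the offsets, and DESeq2 1.42.0. The rest had each of the 14 libraries left out, and 3 libraries left out together. The one added after seeing the data joined the last with the offsets. The 3 libraries left out together were picked by how they differ from their groups in these data, so that setting is not independent of them.

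Named genes were the 10 members whatever their values, from the pathway list the called genes (at most 6 a comparison) with SRF, MKL1, MKL2 and MYOCD, and the 2 genes most like each member. Some genes that this rule names are not reported here. Members and lists were chosen with earlier results of these data known. Separate cultures or clones are not stated in the labels, and p-values then reflect only how these samples vary, which may be technical. Limits on counts cover counting error only.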

Additional observations from a re-analysis of the deposited data

Results flagged for a closer look

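In 20 groups of 4 libraries, 2 held a library far from the other 3, and chance flags about 1 in 20 groups. CNN2 stood at 80.1 CPM in KDAC4 H976Y replicate 4, against 108.4 to 111.5 CPM in the other KDAC4 H976Y libraries, a gap of 0.901 of the group's range where 0.829 is the limit. FLNA stood at 2673 CPM in the same library, against 3464 to 3619 CPM in the others, a gap of 0.835 of the range. Mitochondrial ribosomal RNA took 31.5% of the counts of that library and 16.1% to 17.2% of the others of its group. Its part in the flagged values was not tested.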

How the results depend on the processing

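Of 1296 values of the 9 tested genes under the 24 alternatives, 1073 kept their direction and side of the threshold, 80 lost the call, 81 gained one and 62 changed sign; none of the 9 called values changed sign (0 of 9), and 14 of the 54 values did somewhere. In the words below "offsets" are those for GC content and gene length, "3 out" leaves out KDAC4 H803A replicate 1 and KDAC7 H709A replicates 1 and 4, and causes were not tested beyond what the fewer libraries of a fit imply. Scalings moved the median of all genes by at most 0.031 (log2).

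Calls among the 9 genes for TMP195 against KDAC4 H976Y numbered 3, 6 with 3 out and offsets, and 2 to 3 with 1 library left out. For TMP195 against KDAC7 H709A they numbered 3, 1 without the filter, 0 with only the 2 groups or with the block, 7 with 3 out, 7 with 3 out and offsets, and 0 to 4 with 1 library left out. For TMP195 against KDAC4 H803A they numbered 0, 4 with 3 out, 6 with 3 out and offsets, 2 by DESeq2, and 0 to 1 with 1 library left out. For KDAC7 H709A against KDAC4 H803A they numbered 0, 6 with 3 out, 7 with 3 out and offsets, and 0 to 2 with 1 library left out. For KDAC7 H709A against KDAC4 H976Y they numbered 2, 0 without the filter or with the block, 1 with only the 2 groups, 6 with 3 out, 7 with 3 out and offsets, and 0 to 4 with 1 library left out. For KDAC4 H803A against KDAC4 H976Y they numbered 1, 0 without the filter, 2 with offsets, 7 with 3 out, 8 with 3 out and offsets, 4 by DESeq2, and 0 to 4 with 1 library left out. With 3 out, 5829 to 11848 of the 17780 genes were called over the 6 comparisons, and with 3 out and offsets 5522 to 10668. The raised counts among the 9 under these settings thus go with raised counts among all genes.

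Calls among all genes for TMP195 against KDAC4 H976Y numbered 2936, 9576 with only the 2 groups, 1556 with the block, 9895 with 3 out, 9310 with 3 out and offsets, 4493 by DESeq2, and 1307 to 5079 with 1 library left out. For TMP195 against KDAC7 H709A they numbered 1119, 453 with the block, 667 with the block and offsets, 8392 with 3 out, 5522 with 3 out and offsets, 2484 by DESeq2, and 422 to 2755 with 1 library left out. For TMP195 against KDAC4 H803A they numbered 949, 366 with only the 2 groups, 563 with the block, 8792 with 3 out, 8113 with 3 out and offsets, 1936 by DESeq2, and 436 to 2695 with 1 library left out. For KDAC7 H709A against KDAC4 H803A they numbered 0, 14 without the filter, 11044 with 3 out, 9003 with 3 out and offsets, 79 by DESeq2, and 0 to 4788 with 1 library left out. For KDAC7 H709A against KDAC4 H976Y they numbered 2218, 1322 with the block, 3384 with offsets, 5829 with 3 out, 6017 with 3 out and offsets, 3394 by DESeq2, and 1215 to 3440 with 1 library left out. For KDAC4 H803A against KDAC4 H976Y they numbered 2679, 1634 with only the 2 groups, 1230 with the block, 11848 with 3 out, 10668 with 3 out and offsets, 4377 by DESeq2, and 1129 to 8431 with 1 library left out.

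These log2 values changed sign, none of them called with all libraries. In TMP195 against KDAC4 H976Y, FLNA came to -0.41 with offsets, -0.44 with block and offsets, -0.41 with 3 out and offsets, and 0.00 to 0.18 with 1 library left out. FLNC came to -0.44, -0.27 and -0.44 under the same settings and 0.00 to 0.16, and MYH9 to 0.00 without the filter and -0.09 to 0.04. In TMP195 against KDAC7 H709A, CNN2 came to -0.01 with 3 out and offsets, and CALD1 to 0.10 with offsets, 0.12 with block and offsets, 0.03 with 3 out and 0.50 with 3 out and offsets. In TMP195 against KDAC4 H803A, TPM1 came to -0.03 with offsets, -0.05 with block and offsets, -0.10 with 3 out, -0.27 with 3 out and offsets, and -0.10 to 0.13 with 1 library left out, and MYH9 to 0.01 without the filter, 0.12 with offsets, 0.12 with block and offsets, 0.21 with 3 out and offsets, and -0.25 to 0.19. In KDAC7 H709A against KDAC4 H803A, MYL9 came to 0.08 with offsets, 0.08 with block and offsets, 0.49 with 3 out and offsets, and -0.31 to 0.06 with 1 library left out. FLNA there came to 0.02 without the filter, 0.05 with the block, 0.40 with offsets, 0.47 with both, 1.15 with 3 out and offsets, and -0.11 to 0.12, and CALD1 to -0.25 to 0.06 with 1 library left out. In KDAC7 H709A against KDAC4 H976Y, TAGLN came to -0.01 with offsets, -0.08 with block and offsets, -0.93 with 3 out, -0.81 with 3 out and offsets, and -0.34 to 0.34 with 1 library left out, and CNN2 to 0.06 with 3 out and offsets. In KDAC4 H803A against KDAC4 H976Y, MYL9 came to -0.18 with 3 out and offsets, and MYH9 to -0.01 without the filter, -0.01 with the block, -0.60 with offsets, -0.57 with block and offsets, -0.69 with 3 out and offsets, and -0.22 to 0.21 with 1 library left out.

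The replicate numbers did not pair the libraries: of 19 same-numbered pairs, deviations from the group means correlated at -0.687 to 0.358, 5 of them above 0.1, and 3 of 14 libraries correlated best with their own number. With the replicate block 1 of the 9 genes was called in KDAC4 H803A against KDAC4 H976Y, 2 in TMP195 against KDAC4 H976Y and 0 in the other comparisons. At 4.86 to 23.9 counts per CPM, ACTA2, TAGLN and MYL9 rest on few counts in the shallowest libraries, and CNN1 did not pass the filter on low counts.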
